A study of Mus musculus with 18 samples.

Results

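The hypothalamus of diet-induced obese (DIO) mice given vehicle was compared with that of lean mice, with 6 libraries per side out of the 18 libraries of the study. All 12 libraries came from male wild-type C57BL/6JGpt mice aged 7 months, and per the labels each library is a separate biological sample. The p-values below rest on the spread between samples within groups, estimated together with the libraries of the remaining group of the study. The obese mice ate a high-fat diet that began at 6 weeks of age and lasted 16 weeks or longer, and they received vehicle by oral gavage 2 times a day. A 14-day period of vehicle gavage came before dosing, which lasted 29 days per the labels and 28 days per the deposited sample table. The lean mice ate chow and were not dosed, so diet and dosing differ together between the groups and cannot be told apart. Libraries were chosen by their titles, and every gene of the count table entered the comparison. It was made with all 6 libraries per side and again without vehicle replicates 2 and 4, which hold transcripts of the pituitary gland.

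The hypothalamus is the brain region that sets feeding, energy use and the release of pituitary hormones. Neurons of its arcuate nucleus make opposing peptides, among which AgRP and neuropeptide Y drive feeding and products of Pomc restrain it, and neurons of its lateral part make melanin-concentrating hormone. In rodents, a high-fat diet is known to alter arcuate peptides, glia and inflammatory signalling. Corticosteroids act in this tissue through nuclear receptors that switch on target genes, as part of the feedback loop of the stress axis.

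Markers of the labelled tissue were present in all 12 libraries. The summed level of 16 transcription factor genes of hypothalamic regions lay between 322 and 402 CPM (counts scaled to a common library size) in lean and between 294 and 345 CPM in vehicle libraries. No gene of the 7 lists of tissue and blood markers was at 0 in every library. Total counts were 2069960 to 3695646 per lean library and 1699650 to 2761378 per vehicle library. RNA integrity numbers were 9.4 to 10.0 in lean and 9.5 to 9.9 in vehicle samples, with lean replicate 6 the highest of all. Vehicle replicates 2 and 4 held 3951 and 3538 CPM of 11 anterior pituitary genes against 8.80 to 22.9 CPM in the other 4 vehicle libraries and 13.4 to 32.3 CPM in lean libraries. Lean replicate 6 stood apart in another way. It lay at -30.8 on the first principal component, where the other 5 lean libraries lay between 13.6 and 31.7 and the vehicle libraries between -32.6 and 21.6. Both exceptions touch many results below. The labels give no reason to leave out lean replicate 6, which was singled out because the data showed it apart from the other lean libraries. Leaving it out narrows the lean spread of the genes in which it stands apart. Adjusted p-values from fits without it can therefore be too small, and such calls below are not independent evidence.

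With all 6 libraries per side, edgeR's quasi-likelihood test called 1 of 11835 genes at a Benjamini-Hochberg adjusted p under 0.05, which is 0.00845% of the genes tested. That gene was Sgk1. Before adjustment, 1287 genes (10.9%) had a p under 0.05, of which 630 were higher in vehicle libraries (5.32%) and 657 lower (5.55%). Without vehicle replicates 2 and 4, edgeR called 0 of 12107 genes (0%), with 622 higher (5.14%) and 644 lower (5.32%) at an unadjusted p under 0.05 and a smallest adjusted p of 0.0813, while DESeq2 called 13 genes and limma voom with sample weights called 128. With all libraries, voom gave lean replicate 6 the lowest weight, 0.373. Voom's calls below are therefore not independent of the fits that leave that library out. In direction alone, 51.1% of genes were higher and 48.9% lower in the first fit, and 49.6% and 50.4% in the second. The median log2 difference over all genes was 0.01 in the first fit and -0.0026 in the second. In bulk tissue, fewer cells of a type and less RNA per cell cannot be told apart, which holds for every gene below.

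Sgk1 encodes the serum- and glucocorticoid-regulated kinase, which acts on ion channels and transporters and is induced by corticosteroids. Its level was 11.5, 23.7 and 42.0 CPM at the lowest, median and highest of the 6 lean libraries and 72.6, 84.0 and 113 CPM in the vehicle libraries. Every vehicle library lay above every lean library, and within the lean group replicates 1, 2 and 3 lay at or below 16.2 CPM while replicates 4, 5 and 6 lay at or above 31.2 CPM. The log2 change was 1.75 (SE 0.26, edgeR adjusted p = 0.0315) with all libraries. The difference was of the same size without vehicle replicates 2 and 4, at 1.76, with an adjusted p of 0.0813. Sgk1 lost its call without any one of vehicle replicates 1, 2, 4 and 6, lean replicates 2 and 3 and TN-783 replicates 5 and 6 (adjusted p up to 0.126), where its log2 difference was 1.62 to 1.76. TN-783 is the compound given to the remaining group of the study. The libraries of that group enter the fit through the shared estimate of spread, the filter on low counts and the scaling.

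Promoters of Sgk1 are shown because it was the gene called. Of the windows of its 6 annotated starts, only the 2 that hold the match described below are printed. The sequences are those of RefSeq on GRCm38.p6, from 250 bases before to 50 bases after an annotated start, both on the plus strand. Of these 2 starts, the one called distal here lies in chr10:21978422-21978721 and the one called proximal in chr10:21993640-21993939. Capitals mark the match to ACANNNTGT, the spacing of the core of a glucocorticoid receptor element, which reads the same on both strands.
Sgk1, distal start: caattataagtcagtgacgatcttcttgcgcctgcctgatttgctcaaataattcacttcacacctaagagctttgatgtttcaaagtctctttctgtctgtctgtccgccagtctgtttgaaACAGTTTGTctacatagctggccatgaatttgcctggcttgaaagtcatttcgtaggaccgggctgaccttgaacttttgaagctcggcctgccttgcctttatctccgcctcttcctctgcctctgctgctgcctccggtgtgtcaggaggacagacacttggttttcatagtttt
Sgk1, proximal start: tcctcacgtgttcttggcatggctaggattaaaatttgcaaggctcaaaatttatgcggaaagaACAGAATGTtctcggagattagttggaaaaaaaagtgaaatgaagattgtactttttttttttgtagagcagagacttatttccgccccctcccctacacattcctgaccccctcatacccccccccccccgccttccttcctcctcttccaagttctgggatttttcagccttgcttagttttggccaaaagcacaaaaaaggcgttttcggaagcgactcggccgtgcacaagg
The matches begin 127 and 186 bases before the respective start. Of the 6 annotated starts of Sgk1, 2 have such a match in their window, and 6.85% of all 32851 windows of 300 bases have one. The same search found a match in 0 of 3 windows of Tsc22d3 and 0 of 1 of Fkbp5, which glucocorticoids also induce. It found 1 of 1 for Hdc, which was lower in vehicle libraries, and 0 for Pmch, Plekhf1, Cited1 and Otp. A match of these letters is a description and no evidence of binding.

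Pmch, which encodes the precursor of melanin-concentrating hormone, had the smallest p after Sgk1 with all libraries. Pmch was at 96.2, 111 and 125 CPM at the lowest, median and highest of the lean libraries and at 133, 178 and 220 CPM of the vehicle libraries. The groups did not overlap, and the lowest vehicle library was replicate 3. The log2 difference was 0.66 (SE 0.13, edgeR adjusted p = 0.0879) with all libraries and 0.72 (adjusted p = 0.0813) without vehicle replicates 2 and 4, so Pmch did not pass in either fit. It was called without vehicle replicate 3 (0.73, adjusted p = 0.0309) and without lean replicate 6 (0.68, adjusted p = 0.0167). Its promoter (RefSeq, GRCm38.p6, chr10:88090822-88091121, plus strand) is shown with the TATA box letters TATAAA in capitals, 27 bases before the start, a match held by 13.6% of the same 32851 windows, searched on both strands.
Pmch: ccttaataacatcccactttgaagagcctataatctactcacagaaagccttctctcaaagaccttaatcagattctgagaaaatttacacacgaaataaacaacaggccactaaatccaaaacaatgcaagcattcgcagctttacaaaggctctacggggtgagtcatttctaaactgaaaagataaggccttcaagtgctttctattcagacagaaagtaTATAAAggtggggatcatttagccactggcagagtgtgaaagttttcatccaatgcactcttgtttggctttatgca

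**Figure D1:**
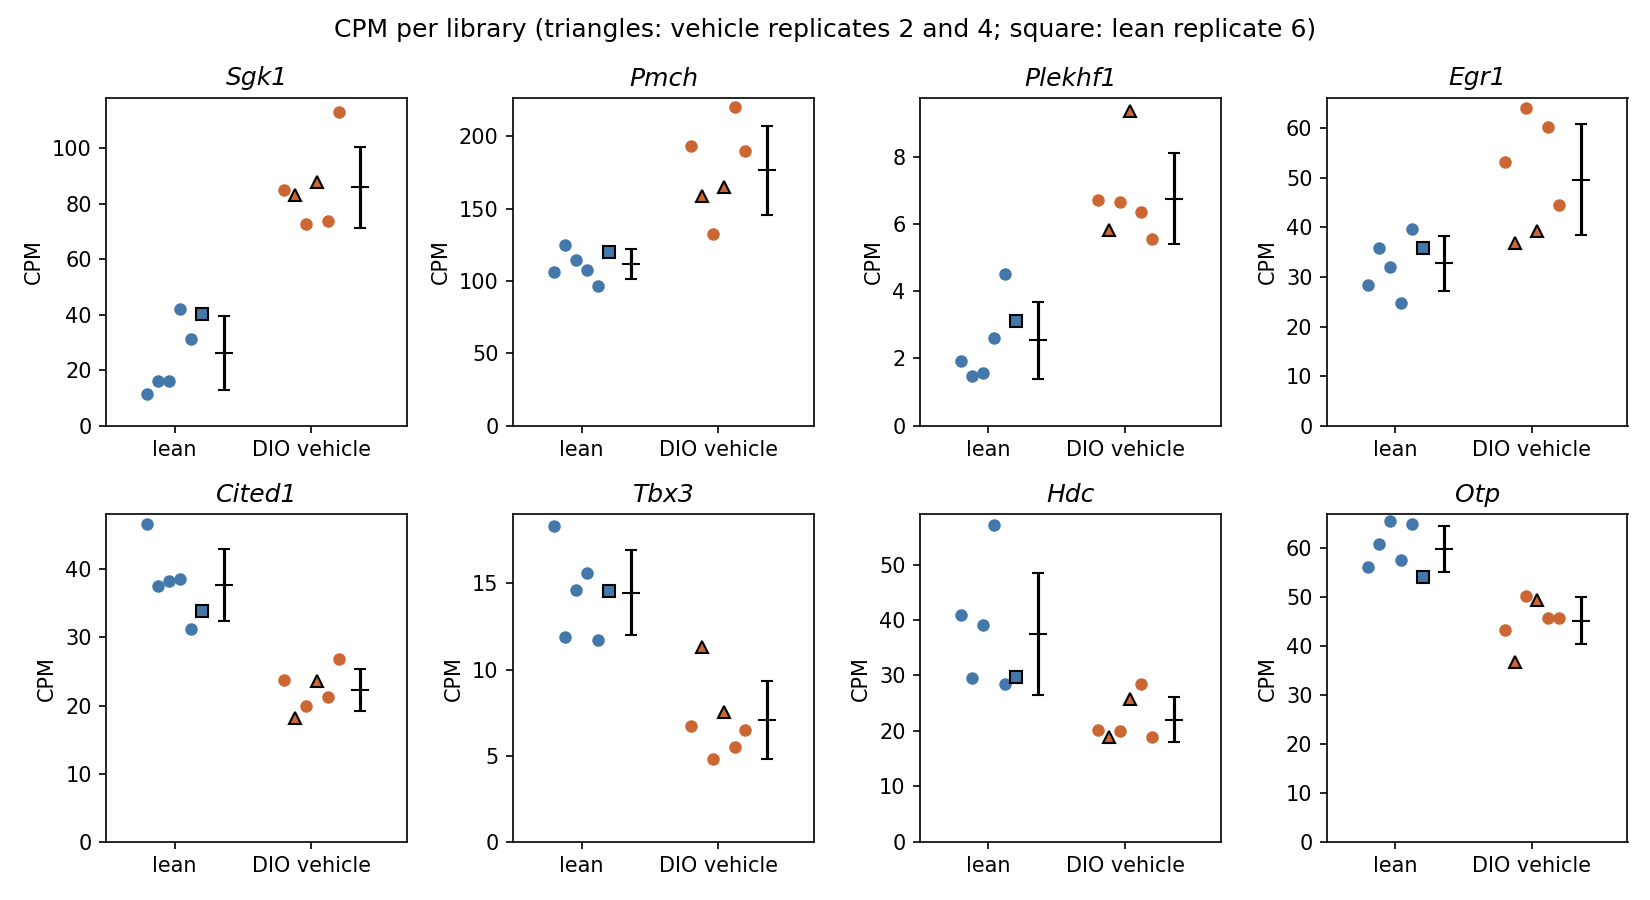
CPM of 8 genes in each of the 6 lean and 6 DIO vehicle libraries, on linear axes from 0, with the group mean and SD at the right of the points. Triangles mark vehicle replicates 2 and 4 and squares mark lean replicate 6. For Sgk1, Pmch, Plekhf1, Cited1, Tbx3, Hdc and Otp the groups do not overlap, and for Egr1 vehicle replicates 2 and 4 lie within the lean range.

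The groups did not overlap for 19 genes higher in vehicle libraries (0.161% of the genes tested) and 28 genes lower (0.237%). Plekhf1, which encodes a lipid-binding protein of endosomes and lysosomes, was at 1.49, 2.25 and 4.52 CPM at the lowest, median and highest lean library and at 5.56, 6.51 and 9.35 CPM in vehicle libraries. It differed by 1.46 on the log2 scale (SE 0.28, edgeR adjusted p = 0.0879) and by 1.36 without vehicle replicates 2 and 4. Homer1, a scaffold gene of the postsynaptic density, Satb1, a chromatin organiser, and the transcription factor gene Pax6 also had every vehicle library above every lean one, and are named after their values were seen. Their log2 differences were 0.36 for Homer1, 0.30 for Satb1 and 0.56 for Pax6, with adjusted p between 0.269 and 0.351. Trib1 (0.82, edgeR adjusted p = 0.124), Rhou (0.72, adjusted p = 0.151) and D16Ertd472e (0.56, adjusted p = 0.195) had a smaller p, but their groups overlapped. In each, 5 vehicle libraries lay above the lean range, and DESeq2 called each of them with all libraries.

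On the lower side, Cited1, a transcriptional co-activator gene, went from 31.2, 37.9 and 46.6 CPM at the lowest, median and highest lean library to 18.2, 22.4 and 26.9 CPM in vehicle libraries. Cited1 differed by -0.76 on the log2 scale (SE 0.16, edgeR adjusted p = 0.151) and -0.72 without vehicle replicates 2 and 4. Prokr2, a receptor gene for prokineticins chosen with its values in view, was at 6.70 to 9.55 CPM in lean and 1.39 to 6.37 CPM in vehicle libraries, with a log2 difference of -0.87 (SE 0.25). Cited1, Prokr2, Plekhf1, Homer1, Satb1 and Pax6 did not pass edgeR's test with all libraries, although no vehicle library of theirs reached the lean range. DESeq2 called Cited1 (adjusted p = 0.0105), and voom called Cited1 (adjusted p = 0.0269) and Plekhf1 (adjusted p = 0.00992). Usp13 (-0.64) and Syt5 (-0.58) were also among the lower genes with the smallest p (edgeR adjusted p = 0.207 for both), and their groups overlapped. Voom called both with all libraries (adjusted p = 0.0269).

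Leaving out vehicle replicates 2 and 4 moved a small set of genes. Of 11834 genes tested in both fits, 121 moved by more than 0.5 on the log2 scale (1.02%), 14 dropped by more than 1 and 0 gained more than 1. Prolactin (Prl) was at 1773 and 1273 CPM in these libraries and at 1.39 to 11.5 CPM in the other 4, and its log2 difference went from 7.70 to 1.18. Growth hormone (Gh), at 1049 and 1026 CPM there and at most 3.71 CPM in the other 4, went from 6.42 to -0.96. Cga, the shared subunit of the glycoprotein hormones and chosen with its values in view, was at 798 and 879 CPM there and went from 5.14 to -1.78. No pituitary gene passed edgeR's test in either fit, while DESeq2 called Prl, Gh, Cga and Pomc with all libraries.

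Pomc behaved as the pituitary genes did. It encodes the precursor of both the satiety peptide alpha-MSH in arcuate neurons and of corticotropin in the pituitary. Its level was 26.0, 34.7 and 48.9 CPM at the lowest, median and highest lean library, 6939 and 3275 CPM in vehicle replicates 2 and 4, and 9.26 to 32.7 CPM in the other 4 vehicle libraries. With all libraries the log2 difference was 5.62 (SE 1.53), and without the pair it was -0.67 (SE 0.66, adjusted p = 0.725). The imprinted gene Mest, chosen with its values in view, was at 58.7 and 45.4 CPM in the pair and at 2.42 to 11.6 CPM in the others, against 3.16 to 7.29 CPM in lean libraries.

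**Figure D2:**
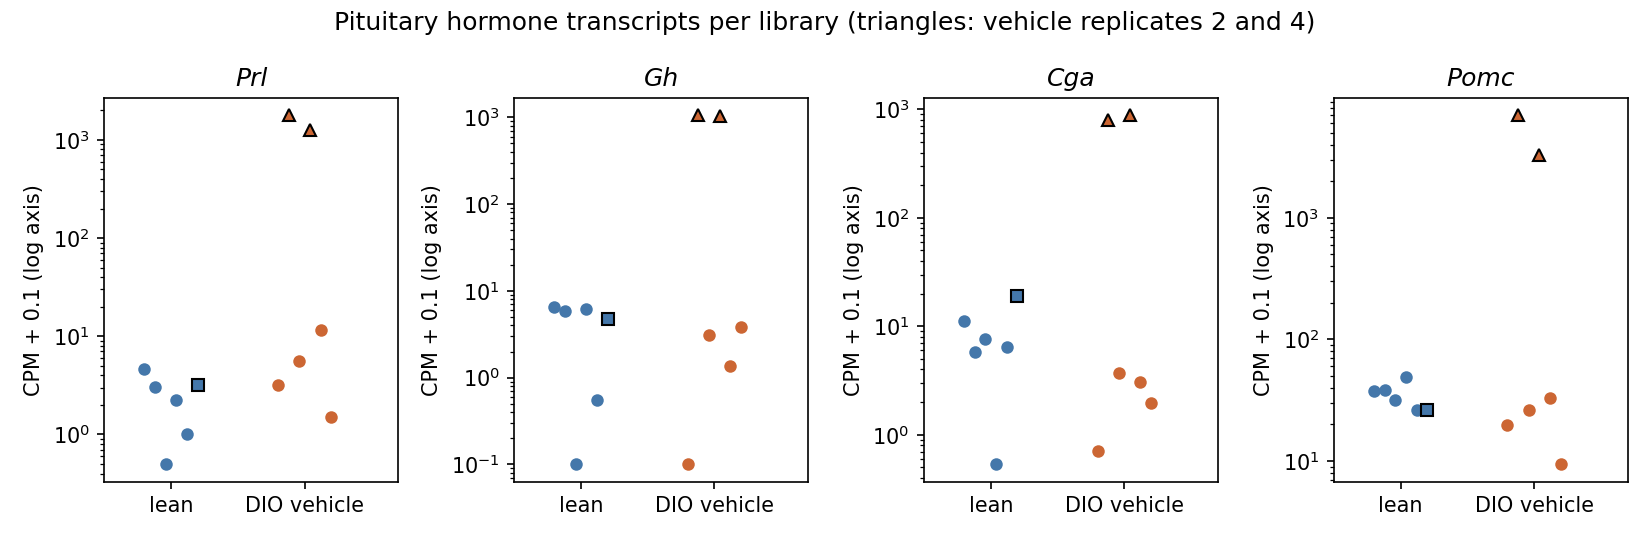
CPM of Prl, Gh, Cga and Pomc in each lean and DIO vehicle library, on a log axis after adding 0.1 CPM. The square is lean replicate 6. Vehicle replicates 2 and 4, drawn as triangles, lie at 798 CPM or higher for all 4 genes, and the other 4 vehicle libraries lie at 32.7 CPM or lower.

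The other genes with the smallest p without vehicle replicates 2 and 4 were in part different from those of the first fit. Egr1, an activity-induced transcription factor, was at 24.7, 33.9 and 39.7 CPM at the lowest, median and highest lean library, at 36.8 and 39.2 CPM in vehicle replicates 2 and 4 and at 44.5 to 64.1 CPM in the other 4. Its log2 difference was 0.59 (edgeR adjusted p = 0.207) with all libraries and 0.76 (adjusted p = 0.0813) without the pair. Stt3a, a catalytic subunit of the enzyme that attaches N-glycans, was at 33.8 to 42.2 CPM in lean libraries, at 48.1 and 44.5 CPM in the pair and at 15.9 to 26.0 CPM in the other 4. Its log2 difference went from -0.30 (adjusted p = 0.569) to -0.82 (adjusted p = 0.0813), since the pair lay above and the other 4 below the lean range. Col1a1, the collagen gene of fibroblasts, was at 6.32 to 15.1 CPM in lean libraries, at 6.56 and 7.12 CPM in the pair and at 1.82 to 3.66 CPM in the other 4, with a log2 difference of -1.22 (adjusted p = 0.207) that became -1.78 (adjusted p = 0.0813). Unc13c, which encodes a vesicle-priming protein of presynaptic terminals, differed by 0.54 and 0.64 in the 2 fits. Kifc2, a kinesin motor gene, differed by 0.49 and 0.69, and Adcy1, the calcium-stimulated adenylyl cyclase gene, by 0.82 and 1.00. All 6 of these genes were among the 13 that DESeq2 called without the pair (adjusted p 0.00497 to 0.0130).

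No feeding peptide gene passed edgeR's test with all libraries or without vehicle replicates 2 and 4, while DESeq2 called Pmch in both fits (adjusted p = 0.00217 and 0.00863) and voom called it with all libraries (adjusted p = 0.0182). Of 5 tested genes of peptides that promote feeding, 2 were higher and 3 lower, and of 5 that restrain it, 3 were higher and 2 lower with all libraries (median 0.11) and 2 higher and 3 lower without the vehicle pair (median -0.06). Pomc was among the genes whose sign differed between these fits. Agrp, which encodes the agouti-related peptide that blocks melanocortin receptors, was at 7.64, 11.4 and 18.2 CPM at the lowest, median and highest lean library and at 0.926, 3.53 and 8.02 CPM in vehicle libraries. Its 2 groups overlapped only through vehicle replicate 2, at 8.02 CPM, which lay above lean replicates 1 and 2. The log2 difference of Agrp was -1.38 (SE 0.42, edgeR adjusted p = 0.301) with all libraries and -1.80 (adjusted p = 0.343) without vehicle replicates 2 and 4. Npy, the gene of neuropeptide Y, was at 20.3, 48.1 and 117 CPM in lean and 14.5, 23.5 and 40.7 CPM in vehicle libraries, where lean replicate 6 was the lowest lean library and replicate 4 the highest. The log2 difference of Npy was -1.13 (SE 0.34) with all libraries, -1.16 without the vehicle pair and -1.28 without lean replicate 6 (adjusted p = 0.0426). Cartpt, a peptide gene that restrains feeding, differed by 0.11 (SE 0.12), and Hcrt, the orexin gene of the lateral hypothalamus, by 0.17 (SE 0.34). Both groups overlapped widely for these 2 genes, and neither passed in any of the 4 fits with and without the libraries that stand apart.

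Of 14 tested genes of other hypothalamic peptides and amines, 4 were higher and 10 lower, with 5 of the 10 at an unadjusted p under 0.05. Their median log2 difference was -0.34, beside 0.01 over all genes. Hdc, the enzyme that makes histamine, was at 28.5, 34.4 and 57.1 CPM at the lowest, median and highest lean library and at 18.9, 20.1 and 28.4 CPM in vehicle libraries, with a log2 difference of -0.75 (SE 0.19, edgeR adjusted p = 0.207). Its groups did not overlap, but the highest vehicle library, at 28.4 CPM, lay just under the lowest lean library, at 28.5 CPM. Oxt, the oxytocin gene, was at 65.6 to 170 CPM in lean and 41.2 to 93.8 CPM in vehicle libraries (-0.94, SE 0.29). Avp, the vasopressin gene, was at 34.4 to 178 CPM in lean and 18.1 to 78.5 CPM in vehicle libraries (-0.94, SE 0.44). Sst, the somatostatin gene (-0.47, SE 0.17), and Pdyn, the dynorphin precursor gene (-0.72, SE 0.26), are named with Avp after their values were seen. For Oxt, Avp, Sst and Pdyn lean replicate 6 was the lowest of the lean libraries, and without it the list's median was -0.50, with Hdc (adjusted p = 0.0299) and Sst (adjusted p = 0.0337) called. Oxt then differed by -1.06, Avp by -1.08 and Pdyn by -0.84, none of which passed.

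Receptors of feeding signals were lower for 10 of 11 tested genes, with 3 at an unadjusted p under 0.05 and a median log2 difference of -0.44. In the fit without vehicle replicates 2 and 4 it was 11 of 12 with a median of -0.41. Npy2r, the Y2 receptor gene, was at 17.3, 21.7 and 24.6 CPM at the lowest, median and highest lean library and at 10.4, 15.5 and 17.4 CPM in vehicle libraries (-0.56, SE 0.17, edgeR adjusted p = 0.283). Calcr, the calcitonin receptor gene through which amylin acts, was at 10.4, 22.4 and 29.0 CPM in lean and 8.47, 12.3 and 18.3 CPM in vehicle libraries (-0.76, SE 0.25, adjusted p = 0.318). Lean replicate 6 gave the lowest lean value of Calcr, and without it Calcr was called (-0.88, adjusted p = 0.0341). Calcr was the only gene of this list called in any of the 4 fits. Glp1r, the GLP-1 receptor gene, chosen with its values in view, differed by -0.72 (SE 0.33) with all libraries and by -0.89 without lean replicate 6.

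Transcription factor genes that mark hypothalamic regions were lower for 12 of 15 tested members, 4 of them at an unadjusted p under 0.05, with a median of -0.14. Tbx3, a T-box factor of arcuate neurons, was at 11.7, 14.6 and 18.3 CPM at the lowest, median and highest lean library and at 4.84, 6.60 and 11.3 CPM in vehicle libraries. The groups did not overlap, and vehicle replicate 2 was the nearest to the lean range. Tbx3 differed by -0.99 on the log2 scale (SE 0.24, edgeR adjusted p = 0.207) with all libraries and -1.28 (adjusted p = 0.141) without vehicle replicates 2 and 4. Otp, a homeobox factor of neuroendocrine neurons, was at 54.1, 59.2 and 65.5 CPM in lean and 36.8, 45.8 and 50.2 CPM in vehicle libraries, again without overlap (-0.41, SE 0.12, adjusted p = 0.255). Prox1, another homeobox factor and named after its values were seen, differed by -0.47 (SE 0.16). These 3 genes were called by edgeR without lean replicate 6, at -0.98 for Tbx3, -0.44 for Otp and -0.56 for Prox1. With all libraries voom called Tbx3 (adjusted p = 0.0467), Otp (adjusted p = 0.0496) and Prox1 (adjusted p = 0.0453). DESeq2 called Tbx3 without vehicle replicates 2 and 4 (adjusted p = 0.0378). Markers of neighbouring tissue had other patterns. The summed level of 10 cortex and hippocampus genes was 37.5 to 58.8 CPM in lean and 38.7 to 94.5 CPM in vehicle libraries, highest in vehicle replicates 5 and 6. Of that list, 4 of 5 tested genes were higher with all libraries (median 0.27). Without vehicle replicates 2 and 4, 7 of 8 were higher, 4 of them at an unadjusted p under 0.05 (median 0.70). In these 2 fits the medians were -0.07 and 0.02 for thalamus genes and 0.10 and 0.19 for striatum genes. For choroid plexus, with 2 and 3 genes tested, they were 0.38 and 0.92. Neurod6, a cortical and hippocampal neuron gene chosen with its values in view, was at 1.49 to 3.64 CPM in lean and 1.34 to 9.26 CPM in vehicle libraries. Whether a shift in the tissue taken played a part in the region markers was not tested.

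Genes induced by glucocorticoids were higher for 11 of 13 tested members, where 51.1% of all genes were higher. Of these 11, 9 had an unadjusted p under 0.05, Sgk1 passed over all genes, and the list's median log2 difference was 0.55. It was 0.53 without vehicle replicates 2 and 4, 0.56 without lean replicate 6 and 0.48 with RNA integrity as a covariate. The mean log2 CPM of the list was 4.18 to 5.19 in lean and 4.94 to 5.38 in vehicle libraries, and lean replicates 4 and 5 lay inside the vehicle range. Tsc22d3, the glucocorticoid-induced leucine zipper gene, was at 73.8, 119 and 180 CPM at the lowest, median and highest lean library and at 157, 212 and 244 CPM in vehicle libraries (0.76, SE 0.17, edgeR adjusted p = 0.195). Fkbp5, a co-chaperone of the glucocorticoid receptor, was at 9.08, 12.4 and 14.5 CPM in lean and 11.6, 17.8 and 37.9 CPM in vehicle libraries (0.84, SE 0.23, adjusted p = 0.236). Vehicle replicate 2 gave the highest Fkbp5, and without replicates 2 and 4 its log2 difference was 0.59. Klf9, a zinc finger factor induced by corticosteroids, was at 172, 214 and 250 CPM in lean and 248, 290 and 321 CPM in vehicle libraries (0.46, SE 0.11, adjusted p = 0.207). With all libraries DESeq2 called Tsc22d3 (adjusted p = 0.0105) and Klf9 (adjusted p = 0.0272), and voom called both (adjusted p = 0.0269), while neither called Fkbp5. Omitting lean replicate 5, edgeR called Tsc22d3 (0.90, adjusted p = 0.0243). Without lean replicate 6 edgeR called Tsc22d3 (0.79, adjusted p = 0.0309), Fkbp5 (0.86, adjusted p = 0.0462) and Klf9 (0.48, adjusted p = 0.0309). These 3 genes are named after their values were seen. The list was assembled with its direction in these data known, so its count is not independent evidence.

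Inflammatory genes gave a mixed picture. Of 7 tested genes of NF-kB signalling and cytokines, 5 were higher, 4 of them at an unadjusted p under 0.05, with a median log2 difference of 0.28 and 0.30 without vehicle replicates 2 and 4. Nfkbia, which encodes the inhibitor IkB alpha and is itself an NF-kB and glucocorticoid target, was at 84.8, 113 and 165 CPM at the lowest, median and highest lean library and at 139, 180 and 212 CPM in vehicle libraries (0.65, SE 0.16, edgeR adjusted p = 0.207). With all libraries DESeq2 (adjusted p = 0.0486) and voom (adjusted p = 0.0489) called Nfkbia. Chuk, the kinase subunit IKK alpha, was at 7.64, 9.50 and 14.6 CPM in lean and 12.7, 15.5 and 17.5 CPM in vehicle libraries (0.67, SE 0.20). Lean replicate 6 was the highest lean library for Chuk, which was called without it (0.79, adjusted p = 0.0342). Ikbkb, the kinase subunit IKK beta, chosen with its values in view, was at 14.2 to 18.0 CPM in lean and 18.3 to 24.5 CPM in vehicle libraries, without overlap (0.34, SE 0.16, adjusted p = 0.452). The inflammasome sensor gene Nlrp3 lay between 0 and 1.21 CPM and the cytokine gene Il1b between 0 and 1.39 CPM over all 12 libraries, below the filter on low counts. Of the 5 tested inflammasome genes 3 were higher, each at an unadjusted p under 0.05, with a median of 0.36. Nek7, a kinase that binds NLRP3, differed by 0.50 with all libraries and was called without lean replicate 6 (0.70, adjusted p = 0.0299). Of 11 interferon response genes 4 were higher and 7 lower. At an unadjusted p under 0.05 there were 0, against 10.9% of all genes, and edgeR called 0, against 0.00845%. Among so few genes, 0 is near both shares. Txnip, which binds thioredoxin and is a glucose-responsive gene, was at 11.5, 16.1 and 32.3 CPM in lean and 10.6, 36.1 and 91.8 CPM in vehicle libraries, with vehicle replicate 2 the highest. Its log2 difference of 1.18 (SE 0.39) was 0.53 without vehicle replicates 2 and 4.

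Microglial genes depended on which libraries were used. Disease-associated microglia genes were higher for 9 of 10 tested members with all libraries and for 5 of 10 without vehicle replicates 2 and 4, with medians of 0.14 and 0.04. Spp1, the osteopontin gene, was at 38.6 and 45.0 CPM in the pair and at 5.50 to 11.03 CPM in the other 4, against 6.70 to 14.7 CPM in lean libraries. Homeostatic microglia genes were higher for 8 of 14 with all libraries (median 0.03), for 9 of 14 without the pair (median 0.10) and for 9 of 14 without lean replicate 6 (median 0.16). Aif1, a microglial marker, was at 17.7 CPM in lean replicate 6 and at 2.71 to 6.70 CPM in the other 5, so its log2 difference was -0.01 with all libraries and 0.45 without that library. No microglial gene of these lists was called in any of the 4 fits. Of all genes, 0.00845% were called with all libraries and 0% without vehicle replicates 2 and 4. The share was 2.89% without lean replicate 6 and 1.41% without all 3 libraries. Among so few genes, 0 is near these shares.

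Glial lists differed in direction. Oligodendrocyte precursor genes were higher for 2 and lower for 7 of 9 members (median -0.18). Tanycyte and ependymal genes were higher for 5 and lower for 7 of 12 (median -0.10), and higher for 3 and lower for 9 without vehicle replicates 2 and 4 (median -0.18). Astrocyte identity genes were higher for 14 of 16 members (median 0.21, and 0.28 without vehicle replicates 2 and 4). Reactive astrocyte genes were lower for 4 of 6 (median -0.18, and -0.37 without the pair), with Gfap, the astrocyte filament gene, at 66.8, 85.5 and 155 CPM at the lowest, median and highest lean library and 55.6, 81.2 and 106 CPM in vehicle libraries (-0.20, SE 0.20). Oligodendrocyte and myelin genes were higher for 14 of 16 (median 0.19), with 3 at an unadjusted p under 0.05 and 7 without the pair. Mobp, a myelin protein gene, was at 236, 266 and 472 CPM in lean and 306, 422 and 554 CPM in vehicle libraries (0.47, SE 0.17, edgeR adjusted p = 0.357), with lean replicate 6 the highest lean library. With that library left out Mobp (0.63, adjusted p = 0.0278) and Aspa, an enzyme of oligodendrocytes that splits N-acetylaspartate (0.73, adjusted p = 0.0332), were called. With RNA integrity as a covariate the medians of the astrocyte identity and oligodendrocyte lists were 0.09 and 0.13.

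Endothelial genes were higher for 11 of 15 members, with a median of 0.32 and 4 at an unadjusted p under 0.05. Slc2a1, the glucose transporter of the blood-brain barrier, was at 50.8, 70.1 and 86.3 CPM at the lowest, median and highest lean library and at 75.7, 101 and 121 CPM in vehicle libraries (0.53, SE 0.16, edgeR adjusted p = 0.278). Haemoglobin genes, which count as red blood cell transcripts and whose near-identical copies make each one uncertain, were higher for all 4 tested members, with a median of 1.31. Hbb-bs was at 123, 229 and 279 CPM in lean and 132, 601 and 968 CPM in vehicle libraries, with vehicle replicate 5 inside the lean range and the other 5 above it. Its log2 difference of 1.47 (SE 0.36) was 1.02 without vehicle replicates 2 and 4, which held the highest levels. DESeq2 called Hbb-bs with all libraries (adjusted p = 0.0257). Without vehicle replicate 5, edgeR called Hbb-bs (adjusted p = 0.0116), Hba-a1 (adjusted p = 0.00481) and Hbb-bt (adjusted p = 0.0112). The summed level of the red blood cell list was 357 to 707 CPM in lean and 320 to 2256 CPM in vehicle libraries, and the part of blood in the endothelial difference was not tested. Fibroblast genes were lower for 5 of 7 with all libraries (median -0.11) and for 7 of 7 without the pair (median -0.32). Without lean replicate 6, which held the highest Col1a1, 5 of 7 fibroblast genes were higher (median 0.04).

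**Figure D3:**
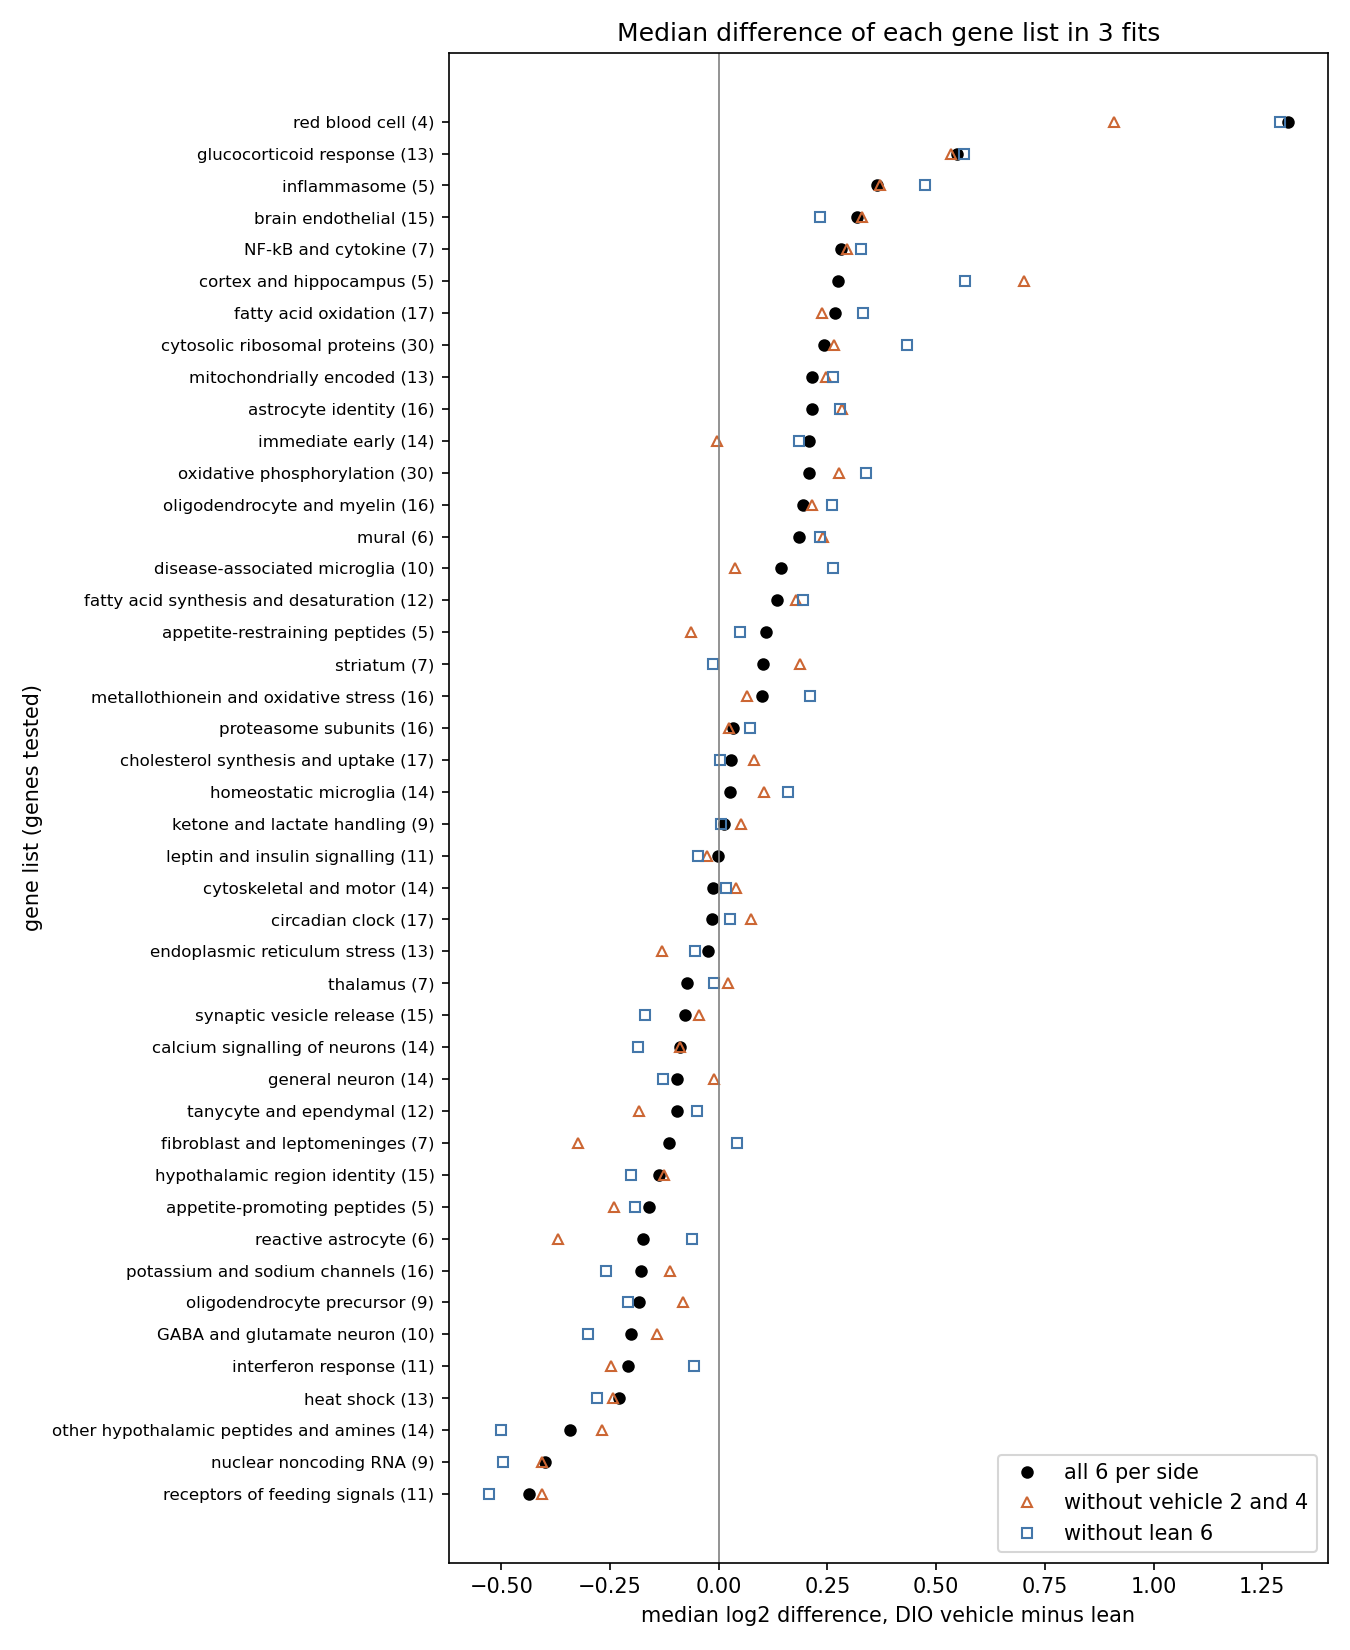
Median log2 difference of each gene list (DIO vehicle minus lean) in 3 fits: all 6 libraries per side as filled circles, without vehicle replicates 2 and 4 as triangles and without lean replicate 6 as squares. The number of genes tested with all libraries is in brackets, and lists with fewer than 4 tested genes are left out. Red blood cell and glucocorticoid lists lie farthest to the right with all libraries, at 1.31 and 0.55, and receptors of feeding signals farthest to the left, at -0.44.

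Genes of energy metabolism and protein synthesis differed little singly and mostly in 1 direction. Fatty acid oxidation genes were higher for 15 of 17 members, 4 of them at an unadjusted p under 0.05, with a median of 0.27. Acadm, the medium-chain acyl-CoA dehydrogenase, was at 31.5, 36.5 and 40.6 CPM at the lowest, median and highest lean library and at 39.6, 43.7 and 52.8 CPM in vehicle libraries (0.33, SE 0.11, edgeR adjusted p = 0.347). Etfdh, which passes electrons from fatty acid oxidation to ubiquinone, differed by 0.71 (SE 0.26). Nuclear genes of oxidative phosphorylation were higher for 28 of 30 (median 0.21), mitochondrially encoded genes for 12 of 13 (median 0.21) and cytosolic ribosomal protein genes for 30 of 30 (median 0.24). Ribosomal protein genes have many near-identical copies, so each of them is uncertain. None of these members passed edgeR's test with all libraries or without vehicle replicates 2 and 4. With all libraries the calls of voom included Rplp0 (adjusted p = 0.0416) and Rpl5 (adjusted p = 0.0453) of the ribosomal list and Ndufb10 (adjusted p = 0.0334) of the oxidative phosphorylation list. Voom also called the ribosomal protein genes Rps18 (adjusted p = 0.0264), Rpl41 (adjusted p = 0.0301) and Rps10 (adjusted p = 0.0412). Ndufb4 (adjusted p = 0.0269) and Cox7b (adjusted p = 0.0453) of the respiratory chain were called by voom too. In the fit without lean replicate 6 the medians were 0.33 for fatty acid oxidation, 0.34 for oxidative phosphorylation, 0.26 for mitochondrially encoded and 0.43 for ribosomal protein genes. With RNA integrity as a covariate the 4 medians were 0.19, 0.08, 0.14 and 0.10, in the order of the lists just given. Cholesterol synthesis genes were divided, with 10 higher and 7 lower.

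Heat shock genes were lower for 9 of 13 members, 6 of them at an unadjusted p under 0.05, with a median of -0.23. Hsph1, a large chaperone of the HSP110 class, was at 169, 173 and 201 CPM at the lowest, median and highest lean library and at 124, 134 and 170 CPM in vehicle libraries (-0.37, SE 0.11, edgeR adjusted p = 0.264). Hsp90aa1, the inducible HSP90 gene, was at 1980, 2342 and 2760 CPM in lean and 1646, 1851 and 2165 CPM in vehicle libraries (-0.33, SE 0.12). Immediate early genes were higher for 11 of 14 with all libraries and for 7 of 14 without vehicle replicates 2 and 4. Circadian clock genes were higher for 8 of 17 and had a median of -0.02. Per1, a clock gene that corticosteroids also induce, differed by 0.49 (SE 0.19). Endoplasmic reticulum stress genes were higher for 6 of 13 (median -0.03), leptin and insulin signalling genes for 5 of 11 (median near 0) and metallothionein and oxidative stress genes for 11 of 16 (median 0.10).

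Neuronal genes were lower more often than higher. GABA and glutamate neuron genes were lower for 9 of 10 members (median -0.20), potassium and sodium channel genes for 14 of 16 (median -0.18), synaptic vesicle genes for 12 of 15 (median -0.08) and general neuron genes for 9 of 14 (median -0.10). With vehicle replicates 2 and 4 left out, the counts lower were 9 of 10, 14 of 16, 9 of 15 and 7 of 14. Grin2b, an NMDA receptor subunit gene, was at 38.0, 74.5 and 80.8 CPM at the lowest, median and highest lean library and at 36.4, 43.7 and 78.5 CPM in vehicle libraries (-0.50, SE 0.20, edgeR adjusted p = 0.389). Lean replicate 6 was at 38.0 CPM and vehicle replicate 5 at 78.5 CPM, each inside the range of the other group. With RNA integrity as a covariate the medians of these 4 lists were -0.08, -0.05, -0.07 and -0.03, and without lean replicate 6 they were -0.30, -0.26, -0.17 and -0.13. Grin2b differed by -0.61 without that library.

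Nuclear noncoding RNAs were lower for 9 of 9 members with all libraries (median -0.40), 4 of them at an unadjusted p under 0.05. Malat1, an abundant RNA of nuclear speckles, was at 885, 1066 and 1347 CPM at the lowest, median and highest lean library and at 518, 685 and 1107 CPM in vehicle libraries. Vehicle replicate 4 was the only vehicle library above the lean median. The log2 difference of Malat1 was -0.58 (SE 0.16, edgeR adjusted p = 0.242) with all libraries and -0.77 (adjusted p = 0.112) without vehicle replicates 2 and 4. With RNA integrity as a covariate it was -0.49, and the list's median was -0.27. Malat1 was called by edgeR without lean replicate 6 (-0.64, adjusted p = 0.0415), where the list's median was -0.50. DESeq2 called Malat1 without vehicle replicates 2 and 4 (adjusted p = 0.00829), and voom called it with all libraries (adjusted p = 0.0269).

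Lean replicate 6 lay with the vehicle libraries for several of these lists. Its mean log2 CPM of ribosomal protein genes was 9.75, where the other 5 lean libraries lay between 8.80 and 9.06 and the vehicle libraries between 8.95 and 9.62. For oxidative phosphorylation genes it lay at 7.86 against 7.11 to 7.32 and 7.25 to 7.86, and for feeding receptors at 3.59 against 4.11 to 4.19 and 3.58 to 3.92. For the glucocorticoid list it lay at 4.59, inside the range of the other lean libraries. Its RNA integrity number of 10.0 was the highest, and how far integrity accounts for its position was not tested.

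**Figure D4:**
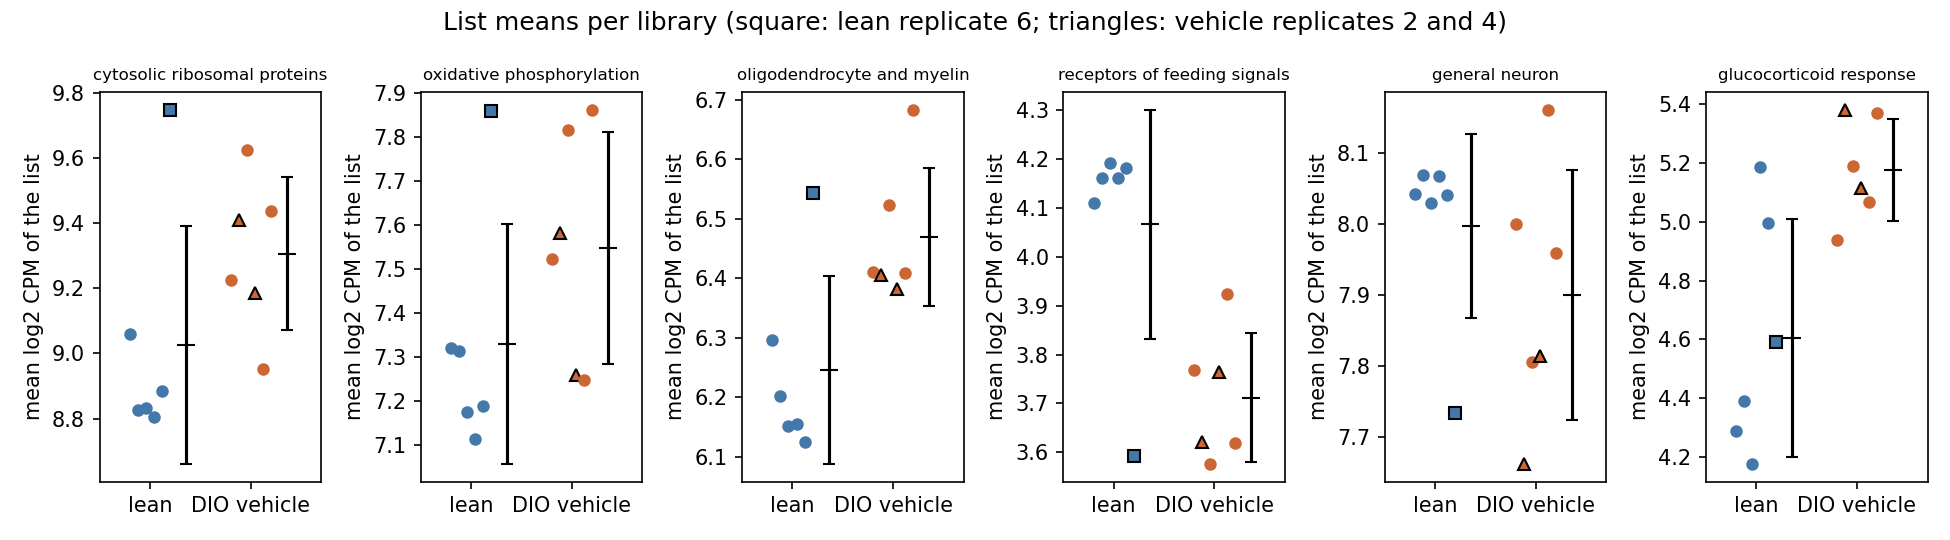
Mean log2 CPM of the tested genes of 6 lists in each lean and DIO vehicle library, with the group mean and SD at the right of the points and a separate vertical axis for each list that does not start at 0. Lean replicate 6, the square, lies among or beyond the vehicle libraries for ribosomal protein, oxidative phosphorylation, oligodendrocyte, feeding receptor and general neuron genes and within the lean range for the glucocorticoid list.

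With lean replicate 6 left out, a choice that rests on these data and not on the labels, edgeR called 346 of 11984 genes (2.89%), of which 196 were higher (1.64%) and 150 lower (1.25%). Before adjustment 21.6% of genes had a p under 0.05, 11.6% higher and 9.99% lower, and in direction alone 52% were higher and 48% lower. With vehicle replicates 2 and 4 left out as well it called 170 of 12092 (1.41%), of which 117 were higher (0.968%) and 53 lower (0.438%). In that fit 21.1% of genes had an unadjusted p under 0.05, 11.3% higher and 9.77% lower, and 50% of genes lay on each side. A total of 124 genes were called in both fits. The groups did not overlap for 171 genes higher (1.43%) and 212 lower (1.77%) when lean replicate 6 was left out. The called differences had a median size of 0.58 and a smallest size of 0.32 on the log2 scale. Called genes with only a model name numbered 17 of the 346.

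**Figure D5:**
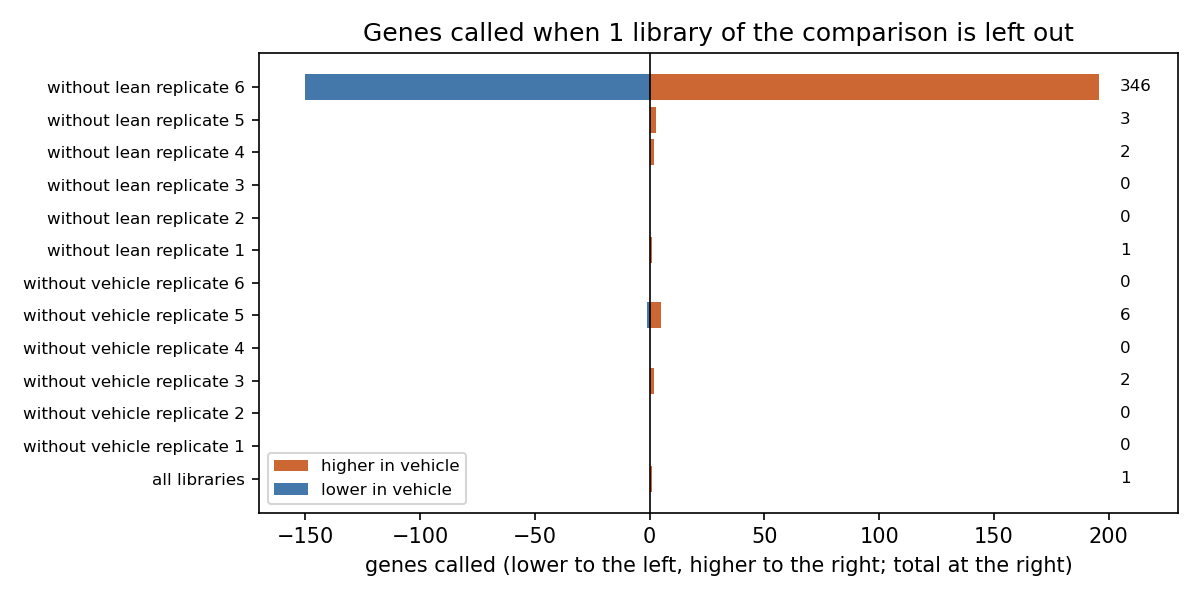
Number of genes called by edgeR at an adjusted p under 0.05 when all libraries are used and when each lean or vehicle library is left out in turn, with genes lower in vehicle libraries to the left of 0 and genes higher to the right. Without lean replicate 6 there are 346 called genes, and no other omission gives more than 6.

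Of 52 axon guidance genes, grouped by symbol after the values were seen, 34 were lower without lean replicate 6 and 6 were called lower, where 1.25% of all genes were. In the same fit 0 of 24 glutamate receptor and 0 of 12 GABA receptor genes were called by edgeR. Among so few genes, 0 is near the 1.25% share of all genes called lower. Without lean replicate 6, 22 of the 24 and 9 of the 12 were lower. Their median log2 differences were -0.27 and -0.21, against -0.14 for the axon guidance genes. Sstr1, a somatostatin receptor gene, was at 3.64 CPM in that library, at most 18.6 CPM in the others and at 4.17 to 10.6 CPM in vehicle libraries, and its log2 difference was -1.19 (edgeR adjusted p = 0.207) with the library and -1.36 (adjusted p = 0.00733) without it. Unc5c, a netrin receptor gene, was at 43.7 CPM in lean replicate 6, at 74.1 to 87.4 CPM in the other 5 and at 41.1 to 53.6 CPM in vehicle libraries (-0.54 with it, -0.64 and adjusted p = 0.0122 without it). Slit2 and Sema6a, which encode axon guidance cues, differed by -0.48 and -0.61 with all libraries and were called at -0.52 and -0.70 without lean replicate 6. Scn9a, a sodium channel gene, and Hrh3, the histamine autoreceptor gene, were called at -0.94 and -0.68. In each of these 6 genes lean replicate 6 was the lowest lean library.

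On the higher side the called genes include parts of the ribosome and the respiratory chain. S100a13, a calcium-binding protein gene, was at 32.8 CPM in lean replicate 6, at 12.1 to 16.98 CPM in the other 5 lean libraries and at 22.1 to 40.5 CPM in vehicle libraries. Its log2 difference was 0.76 (edgeR adjusted p = 0.207) with that library and 1.00 (adjusted p = 0.00733) without it. Rps18, a small-subunit ribosomal protein gene, was at 762 CPM there, at 328 to 401 CPM in the other 5 and at 472 to 692 CPM in vehicle libraries (0.44 with it, 0.68 and adjusted p = 0.00733 without it). Ndufb4, a subunit of respiratory complex I, was at 274 CPM there, at 125 to 145 CPM in the other 5 and at 169 to 282 CPM in vehicle libraries (0.46 with it, 0.69 without it). By symbol, a grouping made after the values were seen, 79 of 80 cytosolic ribosomal protein genes were higher with all libraries (0 called by edgeR) and 38 were called higher without lean replicate 6, where 1.64% of all genes were. Of 90 genes of the respiratory chain and ATP synthase 84 were higher, and 9 were called higher without that library. Of 31 sodium and calcium channel genes 25 were lower, and 3 were called lower without it, against 1.25% of all genes. No test was made of these shares, since the library left out had been seen to lie apart. Proteasome genes were near evenly divided, with 24 of 46 higher.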

How the data were processed

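RNA from hypothalamus was sequenced with a 3' mRNA kit that carries unique molecular identifiers, per the labels' protocols. The authors deposited estimated counts per gene, and per the submitters' processing notes STAR 2.7.9a, Salmon 1.10.1, edgeR 4.6.2 and R 4.5.1 were used with GRCm39. Their roles, the annotation and whether counting used strand are not given in the sources used here. Per the file headers, the deposited sample table also holds RNA integrity scores and the authors' normalization factors, a ratio that was not used for testing. Libraries were grouped by title. Of 56980 features, 19684 were 0 in all libraries, and 12% of values were not whole, so the counts were rounded. A 3' count follows molecules at transcript ends and does not separate isoforms.

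Genes were kept by filterByExpr with a minimum count of 10, scaled by TMM and tested with edgeR 4.0.16 (robust quasi-likelihood, R 4.3.3) over 3 groups, with Benjamini-Hochberg adjustment over all tested genes and a threshold of 0.05. Differences are log2, vehicle minus lean, and CPM values are the counts scaled by library total and TMM factor. The 4 fits used all libraries, left out vehicle replicates 2 and 4, left out lean replicate 6, or left out all 3. Alternatives were DESeq2 1.42.0, limma 3.58.1 voom with sample weights, RLE and upper-quartile scaling, no filter, a filter of 1 CPM in 6 libraries, 2 groups only, a replicate block, RNA integrity as a covariate and omission of each library. The procedure was tested on simulated data. Named genes were those called, up to 12 per direction by smallest p, or else the 6 with the smallest p per direction, in the fit of all libraries, without the vehicle pair and (called genes only) without lean replicate 6. For each list up to 4 called members or otherwise the 2 with the smallest p were named, and 12 genes were always included. Not every gene so chosen is given in the text. Genes known only by a model name were counted and not named, and exceptions are marked in the text. The members and lists were chosen with earlier results of these data known. Promoter sequences come from a RefSeq table for GRCm38.p6 and gene symbols from the deposited table, so no coordinate of the counting build is printed.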

Additional observations from a re-analysis of the deposited data

Results flagged for a closer look

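Of 290 combinations of a measure and a group, 40 had a library whose gap to its nearest neighbour was above Dixon's 95% critical value for 6 samples, where chance gives about 1 in 20. Lean replicate 6 accounted for 26 of the 40. Many of the measures are genes named because edgeR called them when that library was left out, so neither its count nor the total can be read against the chance rate. It was the high library for S100a13 (32.8 CPM), Rps18 (762 CPM), Ndufb4 (274 CPM), Ccdc85c (114.5 CPM), Pfdn5 (441 CPM), Cox7b (450.2 CPM), Rpl5 (1022 CPM), Chuk (14.6 CPM), Nek7 (120.2 CPM) and Gfap (155 CPM). It was also high for Aspa (15.6 CPM), Bcas1 (545.5 CPM), Otx2 (9.37 CPM), Fads1 (213 CPM), Rplp0 (219.7 CPM), Ndufb7 (72.4 CPM), Ndufb10 (140.0 CPM), mt-Cytb (9142 CPM), Psma7 (233 CPM), Il18 (38.0 CPM) and Aif1 (17.7 CPM). It was the low library for Unc5c (43.7 CPM), Pnck (61.9 CPM), Elavl4 (170.7 CPM), Syn2 (262 CPM) and the first principal component (-30.8).

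Vehicle replicate 5 was the high library for Grin2b (78.5 CPM), Syn2 (381 CPM), Avp (78.5 CPM) and Sst (89.1 CPM). Vehicle replicate 4 was high for Plekhf1 (9.35 CPM) and Slit2 (48.1 CPM) and low for Cartpt (56.5 CPM). Vehicle replicate 6 was high for Sgk1 (113 CPM) and vehicle replicate 2 for Srxn1 (123.5 CPM). Lean replicate 4 was high for Npy (117 CPM) and Avp (178 CPM), lean replicate 5 for Tcf7l2 (131.9 CPM), and lean replicate 2 was low for Satb1 (80.9 CPM) and high in total counts (3695646).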

How the results depend on the processing

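With all libraries, the count of called genes was 1 in edgeR, 22 with DESeq2, 146 with limma voom, 126 with no filter, 0 with the filter of 1 CPM in 6 libraries, 0 with 2 groups only and 0 with vehicle replicates 2 and 4 left out. Omitting each library in turn gave 0 to 346. The count was 346 when lean replicate 6 was omitted, 6 for vehicle replicate 5, 3 for lean replicate 5, 2 each for vehicle replicate 3 and lean replicate 4, and 0 for vehicle replicates 1, 2, 4 and 6, lean replicates 2 and 3 and TN-783 replicates 5 and 6. In the fit that leaves out the vehicle pair, the count was 0 in edgeR, 13 with DESeq2, 128 with voom and 72 with no filter, and single omissions gave 0 to 170, the highest for lean replicate 6, with 5 for vehicle replicate 5. With the replicate number as a block, the counts were 1 with all libraries and 2 in the fit that leaves out the pair (Sgk1 and F3). The correlations of same-numbered deviations were -0.02, 0.0065, -0.13, 0.23, 0.14 and 0.38, with 3 over 0.1, and 2 of 6 samples correlated best with their own number. So few values cannot decide whether shared replicate numbers pair the samples. Sgk1 passed in every alternative that kept all libraries other than the CPM filter and the 2-group fit, where its log2 difference was 1.74 and 1.75.

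Leaving out vehicle replicates 2 and 4 reversed the sign for Pomc (-0.67), Nucb2 (-0.064), Spp1 (-0.14), Dcn (-0.32), Gh (-0.96), Drd2 (-0.14), Cga (-1.78), Clic6 (0.081) and Aif1 (0.11). Clic6 also reversed with voom (0.060), and over single omissions it ranged from -0.099 to 0.032, positive when vehicle replicate 2, 4 or 6 or lean replicate 6 was omitted. Aif1 also reversed with upper-quartile scaling (0.0050), the block (0.031) and voom (0.40), and over single omissions it ranged from -0.16 to 0.45, positive for vehicle replicates 4 and 5 and lean replicate 6. The cause was not tested. No scaling moved the median of all genes by over 0.1. Depth limits genes of few CPM.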

Other observations

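The sample weights that limma voom estimated from the counts were lowest for lean replicate 6, at 0.373, and lay between 0.627 and 1.76 for the other libraries. With all libraries, 141 of the 146 genes that voom called were among the 346 genes that edgeR called without lean replicate 6. Among the shared genes were Hdc, Sst, Chuk, Nek7, Mobp, Aspa and Slc2a1. Without vehicle replicates 2 and 4, 95 of the 128 genes that voom called were among the 170 that edgeR called when lean replicate 6 was left out as well.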
